A study of Homo sapiens with 36 samples.

Results

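The mitochondrially encoded transcripts are the RNAs copied from the small circular genome inside mitochondria, and their members here were every row of the gene table whose symbol begins with MT-. These were 37 of 62710 genes: 13 mRNAs, 2 ribosomal RNAs (rRNAs) and 22 transfer RNAs (tRNAs). They were measured by RNA-seq in H9 cells, a human embryonic stem cell line, induced to become neurons (iNeurons) by doxycycline-dependent expression of the transcription factor NGN2. Cells labelled WT, RAI1 heterozygous (RAI1+/−, called HET here) or RAI1 knockout (RAI1−/−, called KO here) were harvested on days 0, 3 and 7. Each of the 9 combinations had 4 replicates, which gave 36 libraries. The NGN2 system, the growth medium with Geltrex coating and the ROCK inhibitor Y-27632 at plating were common to all groups. The labels call the replicates biological, do not say how many clones stand behind a genotype, and place every library in 1 batch.

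The mitochondrial genome is transcribed from both of its strands into long precursor RNAs, from which tRNAs are cut out and so release most of the mRNAs and rRNAs between them. MT-ND6 is the single mRNA read from the strand opposite to the other 12, so it comes from a different precursor. The 13 mRNAs encode core subunits of respiratory complexes I, III and IV and of the ATP synthase, whose remaining subunits are encoded in the nucleus. Neurons depend heavily on these complexes, whereas pluripotent stem cells are known for a strongly glycolytic metabolism.

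Overlap, length and likeness to nuclear copies bear on how the members could be counted, and the sequences below show each. They are reference sequences from the GENCODE 29 transcripts on GRCh38, the build named in the submitters' processing notes. MT-ATP8 (chrM:8366-8572, plus strand, 207 bases) is shown first because its last 46 bases, in capitals, are also the first bases of MT-ATP6 (chrM:8527-9207). The last 120 bases of MT-ND4L (chrM:10647-10766, plus strand) are shown because the final 7, in capitals, are shared with MT-ND4 (chrM:10760-12137). Reads within these stretches belong to both genes, and both pairs are known to be carried on a shared mRNA.
MT-ATP8: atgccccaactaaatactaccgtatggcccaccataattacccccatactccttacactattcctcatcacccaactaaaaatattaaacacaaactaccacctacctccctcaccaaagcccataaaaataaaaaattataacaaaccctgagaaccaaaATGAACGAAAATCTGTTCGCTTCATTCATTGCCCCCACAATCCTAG
MT-ND4L end: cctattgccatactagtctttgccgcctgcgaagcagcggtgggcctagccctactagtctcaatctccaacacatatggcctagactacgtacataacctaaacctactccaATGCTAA

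Length is shown by the tRNAs. The longest and the shortest of the 22 tRNA genes, MT-TL1 (chrM:3230-3304, plus strand, 75 bases) and MT-TS2 (chrM:12207-12265, plus strand, 59 bases), are shown because each is shorter than 1 read of 151 bases.
MT-TL1: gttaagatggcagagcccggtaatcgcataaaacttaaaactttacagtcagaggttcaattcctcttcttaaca
MT-TS2: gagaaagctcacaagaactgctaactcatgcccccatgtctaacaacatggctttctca

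Likeness to nuclear copies is shown by MTATP6P1, which receives the largest share of counts among them. MTATP6P1 (chromosome 1, 633696 to 634376, plus strand) is an unprocessed pseudogene with the same 681 bases as MT-ATP6 except for 10 differences, an identity of 98.53%. The 150-base window holding the most differences is shown for MT-ATP6 (chrM:8569-8718) and for MTATP6P1 (chr1:633738-633887), with the 4 differing bases in capitals.
MT-ATP6: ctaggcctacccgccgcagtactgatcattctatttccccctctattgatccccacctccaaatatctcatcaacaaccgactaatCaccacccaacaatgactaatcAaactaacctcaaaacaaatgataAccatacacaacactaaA
MTATP6P1: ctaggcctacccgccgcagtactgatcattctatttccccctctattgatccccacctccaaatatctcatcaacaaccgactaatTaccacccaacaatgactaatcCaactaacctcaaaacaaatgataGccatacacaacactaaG

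The start of MT-ND6 (chrM:14614-14673, minus strand) is shown because its letters differ in kind from those of the other mRNAs: G made up 35.6% of MT-ND6 and 6.3% to 16.2% of the other 12, and C made up 7% of MT-ND6 and 29.5% to 36% of the others.
MT-ND6 start: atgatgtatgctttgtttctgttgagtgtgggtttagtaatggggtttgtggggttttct

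Library totals ran from 23.95 to 56.68 M gene counts, so that 3 counts, taken as the limit for a gene counted at 0, corresponded to 0.0529 to 0.1253 CPM (a gene's counts scaled to a fixed library total). RAI1, the targeted gene, was not lower in the mutant groups: at day 3 WT libraries had 59.3 ± 21.1 CPM (SD, n = 4), HET libraries 69 ± 23.2 and KO libraries 71.6 ± 32.7, and at day 7 the values were 48.4 ± 14.1, 70.4 ± 19.2 and 78.4 ± 11.9. RAI1 RNA per gene therefore does not check the genotype labels, and genotype names below are those of the labels. Summed CPM of 12 neuron markers ran from 314 to 630 in the WT libraries at day 0. It ran from 1387 to 1871 at day 3 and from 6796 to 13575 at day 7. Summed CPM of 12 pluripotency markers averaged 5869, 579 and 394 in WT on the 3 days, and pluripotency gene POU5F1 averaged 379, 9.71 and 0.107 CPM. At day 3 the neuron markers summed to 2142 to 5285 in HET and 5326 to 10742 in KO. The pluripotency markers then averaged 774 in HET and 876 in KO, and POU5F1 alone 8.32 and 2.17 CPM. Glial markers (7 genes) summed to 29.1 to 204 CPM over the WT libraries and mesenchymal or fibroblast markers (6 genes) to 27.3 to 944 CPM, and their part in the results was not tested. RN7SK, RN7SL1, RN7SL2, RMRP and RPPH1, called small structural RNAs here, made up 2.84% to 27.5% of a library. The library labelled HET day 7 replicate 1 stood apart from its group with the largest small RNA share and the smallest mitochondrial share.

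The 22 tRNAs were listed at 0 counts in all 36 libraries, which allows at most 0.1253 CPM in the shallowest library and covers counting error only. Every other annotated gene of this size was at 0 as well: of the 1279 genes outside the mitochondrial genome whose longest GENCODE 29 transcript has at most 75 bases, 1279 had no count in any library. The share at 0 was 97.1% of 3557 genes of 101 to 150 bases and 55.5% of 3127 genes of 201 to 300 bases. The tRNAs were not tested further. The other 15 members passed the filter on low counts in every comparison.

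The 13 mRNAs together took between 0.235% and 2.214% of a library's gene counts. At day 0 the share in replicates 1 to 4 was 1.78%, 1.27%, 1.36% and 0.976% in WT. In HET it was 1.72%, 1.24%, 2.01% and 0.935%, and in KO it was 2.21%, 1.29%, 1.42% and 0.93%. Replicate 4 was the lowest of its group in all 3 genotypes at day 0, and the genotypes overlapped. At day 3 the share was 0.811%, 0.785%, 0.734% and 0.698% in WT, against 1.11%, 1.32%, 0.992% and 0.892% in HET. In KO it was 0.573%, 0.537%, 0.971% and 0.688%. All 4 HET libraries lay above all 4 WT libraries at day 3, and KO spanned WT. At day 7 the share was 0.755%, 1.46%, 0.601% and 0.879% in WT. It was 0.235%, 1.59%, 1.08% and 1.3% in HET and 0.594%, 1.35%, 1.14% and 0.887% in KO. Replicate 2 was the highest of its group in all 3 genotypes at day 7, and no genotype separated from another.

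**Figure D1:**
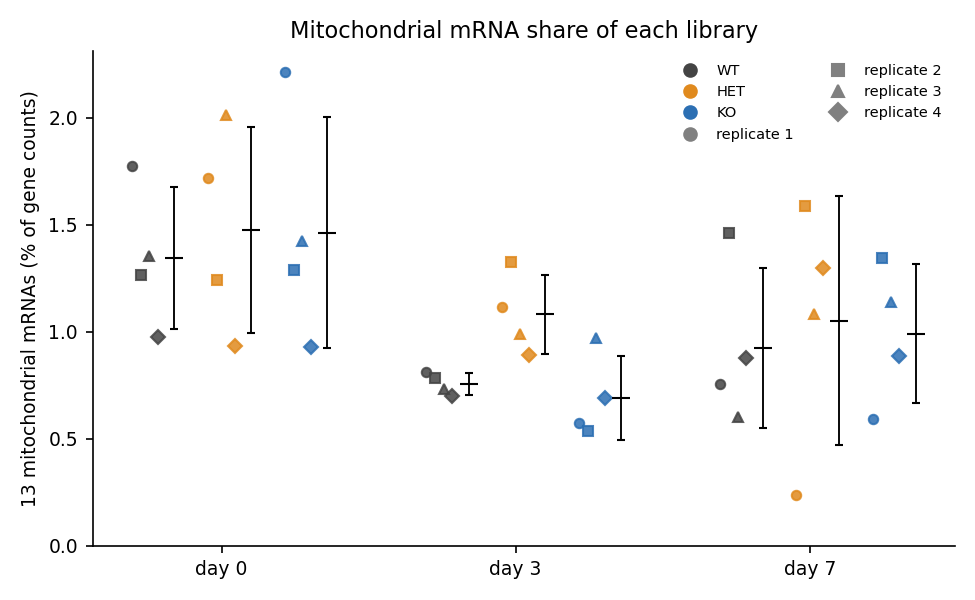
Share of gene counts (%) on the 13 mitochondrial mRNAs in each library, by day and genotype; marker shape gives the replicate number and the black bar the group mean ± SD (n = 4). WT day 3 libraries sit between 0.698% and 0.811%, below all WT day 0 libraries and below all HET day 3 libraries.

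In WT the mean share was 1.34% ± 0.33 (SD, n = 4) at day 0, 0.757% ± 0.051 at day 3 and 0.923% ± 0.375 at day 7. Day 3 was lower than day 0 by a factor of 0.564 with no overlap of the libraries (exact two-sided permutation p = 0.0286, the smallest that 4 against 4 allows). After adjustment over the 11 comparisons of shares this was p = 0.157 by the permutation test, so it did not pass. An adjusted value over 11 such comparisons can pass only if most of them are at the smallest p. The adjusted permutation values here and below therefore cannot decide on a single difference. Day 7 and day 3 overlapped (exact p = 0.6). The counts of nuclear-encoded respiratory chain subunits offer a second yardstick, chosen after the data were seen. Mitochondrial mRNAs made up 69.9% ± 5.73 of all respiratory chain counts at day 0 in WT, 48.2% ± 3.19 at day 3 and 58.8% ± 10.1 at day 7. Day 3 lay below day 0 in all 4 libraries (exact p = 0.0286, adjusted p = 0.157).

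HET had the highest share at day 3, with 1.08% ± 0.186 (SD, n = 4) beside 0.757% ± 0.051 in WT and 0.692% ± 0.196 in KO. HET was 1.43 times WT with no overlap (exact two-sided permutation p = 0.0286, adjusted p = 0.157), and each HET library was above the WT library of its number, by 0.195 to 0.538 percentage points. The summed neuron markers were also higher in every HET library than in every WT library at day 3, as given above, and their part in this difference was not tested. On the TPM scale (the deposited values that correct for transcript length) HET and WT overlapped at day 3 (exact p = 0.143). With the small structural RNAs left out of the total counts they stayed separate, at 1.06% to 1.39% in HET and 0.852% to 0.913% in WT. By share of all gene counts, KO was 0.641 times HET (exact p = 0.0571). Without KO replicate 3, the highest KO library, these 2 groups were separate (exact p = 0.0571, the smallest that 3 against 4 allows). The share did not separate KO from WT at any day, with exact p = 0.686 at day 0, 0.514 at day 3 and 0.8 at day 7. Leaving out KO replicate 3 at day 3 placed all remaining KO libraries below WT, a difference of -0.158 percentage points (exact p = 0.0571). Against HET and against WT, replicate 3 was the KO library that made the groups overlap, so separation without it follows from that choice. The exact p-values without it therefore do not decide on a difference. At day 7 HET and WT gave exact p = 0.714, and the HET mean of 1.05% ± 0.582 held the low library named above.

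From day 0 to day 3 in WT, 11 of the 13 mRNAs fell, by 0.59 to 1.75 on the log2 scale, in edgeR's quasi-likelihood test with Benjamini-Hochberg adjustment at 0.05 over all genes. The median of the 13 was -0.72, beside 0.07 for all 22268 genes tested. Many genes moved over this step, since 60% of all genes tested were called, 31.2% higher and 28.7% lower. The libraries of 10 members did not overlap between the days. That count is a description, since the share of all genes without overlap is not given. Calls were made for 11 of 15 members tested, all lower, and for none of the members in the other direction.

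The largest falls were in MT-ND1 (ENSG00000198888, chrM:3307-4262) and MT-ND2 (ENSG00000198763, chrM:4470-5511), subunits of complex I and the first 2 mRNAs after the rRNAs in the precursor. MT-ND1 CPM in WT was 836, 634, 666 and 427 at day 0, then 194, 184, 188 and 141 at day 3, then 141, 408, 120 and 220 at day 7. Every day 3 library was below every day 0 library, a log2 difference of -1.75 ± 0.29 (SE; edgeR adjusted p = 0.000117). MT-ND2 CPM was 1508, 1364, 1345 and 863 at day 0, 489, 499, 561 and 372 at day 3, and 410, 871, 396 and 567 at day 7. Its difference from day 0 to day 3 was -1.29 ± 0.22 on the log2 scale. These 2 stayed called with any 1 library left out and under every alternative scaling or model tried.

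Complex IV is represented by MT-CO1, MT-CO2 and MT-CO3, its catalytic core. MT-CO1 (ENSG00000198804, chrM:5904-7445), the most counted member, had CPM of 7181, 4553, 5108 and 3856 in WT at day 0. It had 3256, 3206, 3020 and 2958 at day 3 and 3894, 6865, 2902 and 4115 at day 7. MT-CO1 fell by 0.62 ± 0.22 (log2, SE) from day 0 to day 3 (edgeR adjusted p = 0.0217), with no overlap. MT-CO2 fell by 0.71 and MT-CO3 by 0.59 over that step, also without overlap.

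Complex III has a single member, MT-CYB (ENSG00000198727, chrM:14747-15887), which encodes cytochrome b. MT-CYB CPM in WT was 792, 573, 624 and 403 at day 0, 395, 301, 333 and 215 at day 3, and 173, 503, 189 and 368 at day 7. It fell by 0.84 ± 0.29 to day 3. Of the ATP synthase pair, MT-ATP8 fell by 0.85 and MT-ATP6 by 0.68 over the same step. MT-ATP8 CPM was 138, 81.1, 90.7 and 60 at day 0, 56.3, 50.2, 38.4 and 46 at day 3, and 21.2, 66.8, 21.6 and 33.1 at day 7.

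The members not called were MT-ND4 and MT-ND6 among the mRNAs, with log2 differences of -0.42 ± 0.23 and -0.42 ± 0.25, and both rRNAs. The number of calls rested in part on 1 library: without WT day 0 replicate 1, the WT library with the highest share, 4 members were called (MT-ND1, MT-ND2, MT-CO2 and MT-ND3). The small structural RNA share of WT libraries was 4.51% to 6.42% at day 0 and 8.99% to 19.6% at day 3, so it moved with the day. With that share as a covariate, an alternative added after the data were seen, MT-ND1 and MT-ND2 were the 2 members called, and the log2 difference of MT-ATP6 turned to 0.04. The covariate and the day do not overlap and cannot be told apart in these libraries.

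From day 3 to day 7 in WT, 3 of 15 members tested rose and none fell (edgeR). Of all genes 46.2% were called, 23.3% higher and 22.9% lower, so the count of rises is near the share over all genes. MT-ND6 (ENSG00000198695, chrM:14149-14673, minus strand), the complex I subunit from the opposite strand, had CPM of 101, 97.1, 84.5 and 51.7 in WT at day 0. It had 64.3, 49.3, 56 and 61.3 at day 3 and 88.9, 177, 67.4 and 80.6 at day 7. All day 7 libraries exceeded all day 3 libraries, a log2 difference of 0.91 ± 0.25 (SE; edgeR adjusted p = 0.00744). MT-ND5, also of complex I, rose by 0.70 ± 0.24 and MT-CO1 by 0.59 ± 0.215, with libraries that overlapped. The median of the 13 mRNAs was 0.18 and that of all genes 0.01. These calls depend on scaling: with log2(TPM + 1) in limma the median of the 13 was -0.35 and no member was called. Without WT day 3 replicate 1 or 2, MT-ND6 alone was called. Without WT day 7 replicate 2, MT-ND6 was called higher and MT-ATP8 lower.

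**Figure D2:**
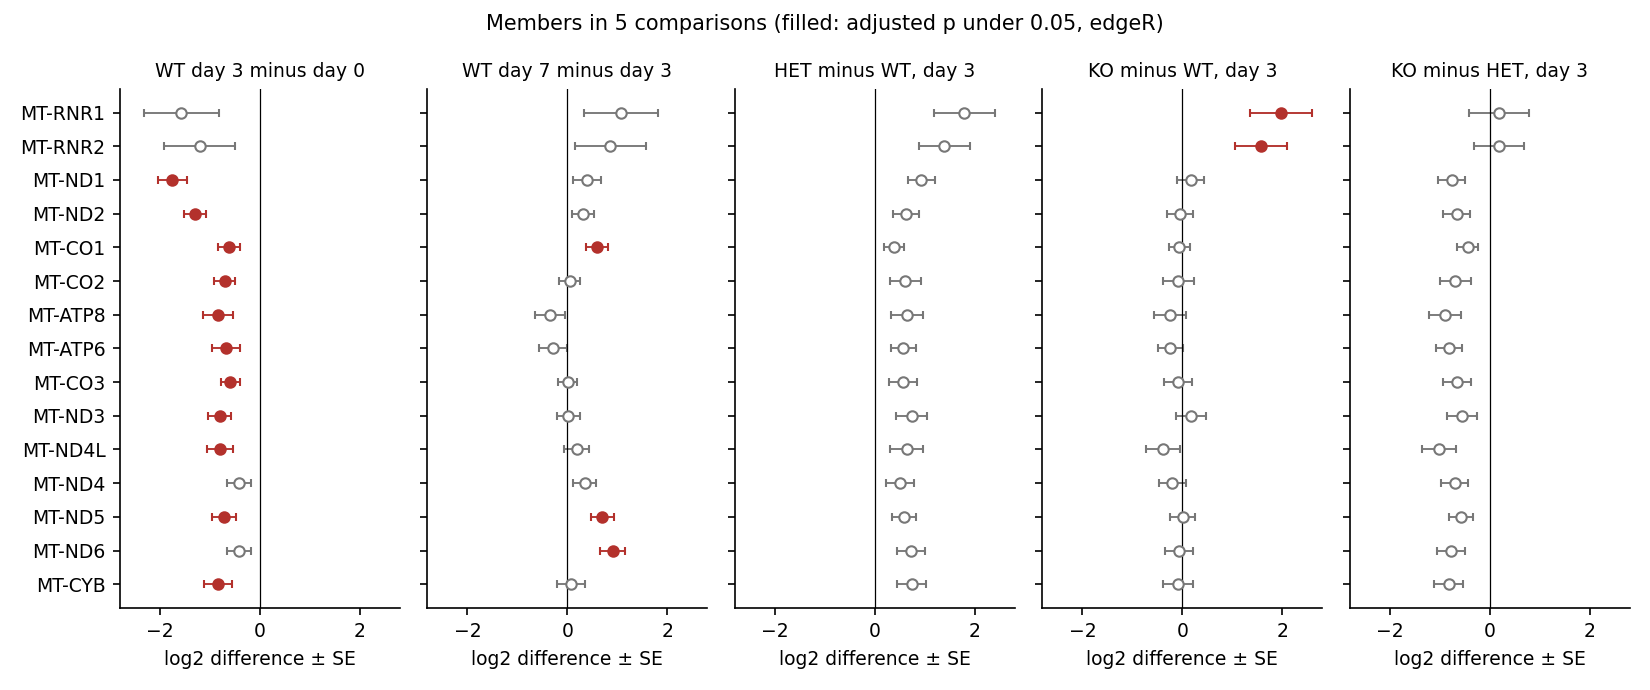
Log2 difference ± SE (edgeR) of the 15 members with counts, in 5 comparisons, in the order rRNAs then mRNAs along the genome; filled red points passed an adjusted p of 0.05. In WT from day 0 to day 3, 11 mRNAs lie to the left as filled points, with MT-ND1 at -1.75; in KO against WT at day 3 only the 2 rRNAs are filled.

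The proportion of single members within the mitochondrial mRNA was described next. MT-CO1 made up 38.4% ± 1.99 (SD, n = 4) of the counts on the 13 mRNAs in WT at day 0, 41.1% ± 0.952 at day 3 and 48.4% ± 2.2 at day 7. MT-ND1 made up 4.75% ± 0.28, 2.33% ± 0.23 and 2.29% ± 0.43, and MT-ND2 9.51% ± 1.04, 6.34% ± 0.96 and 6.11% ± 0.52. For both, all day 3 libraries lay below all day 0 libraries in each of the 3 genotypes. MT-ATP6 made up 8.21% ± 0.401, 8.5% ± 1.14 and 5.26% ± 0.803 in WT, and MT-ATP8 0.675% ± 0.07, 0.629% ± 0.074 and 0.368% ± 0.073. For both ATP synthase subunits, all day 7 libraries lay below all day 3 libraries in each genotype. The proportions are a description without a test, and they do not depend on the scaling between libraries.

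MT-ND6 was the proportion chosen for a test. It made up 0.623% ± 0.103 (SD, n = 4) of the mitochondrial mRNA counts in WT at day 0, 0.765% ± 0.104 at day 3 and 1.11% ± 0.133 at day 7. Day 7 was 1.45 times day 3 with no overlap (exact two-sided permutation p = 0.0286, adjusted p = 0.314 over the 11 comparisons). The corresponding means were 0.722%, 0.886% and 1.33% in HET and 0.757%, 0.754% and 1.26% in KO. No genotype comparison passed at any day, the lowest unadjusted value being exact p = 0.114 for KO against WT at day 0. In HET day 7 replicate 1 the proportion was 2.08%, beside 1.03% to 1.14% in the other 3.

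**Figure D3:**
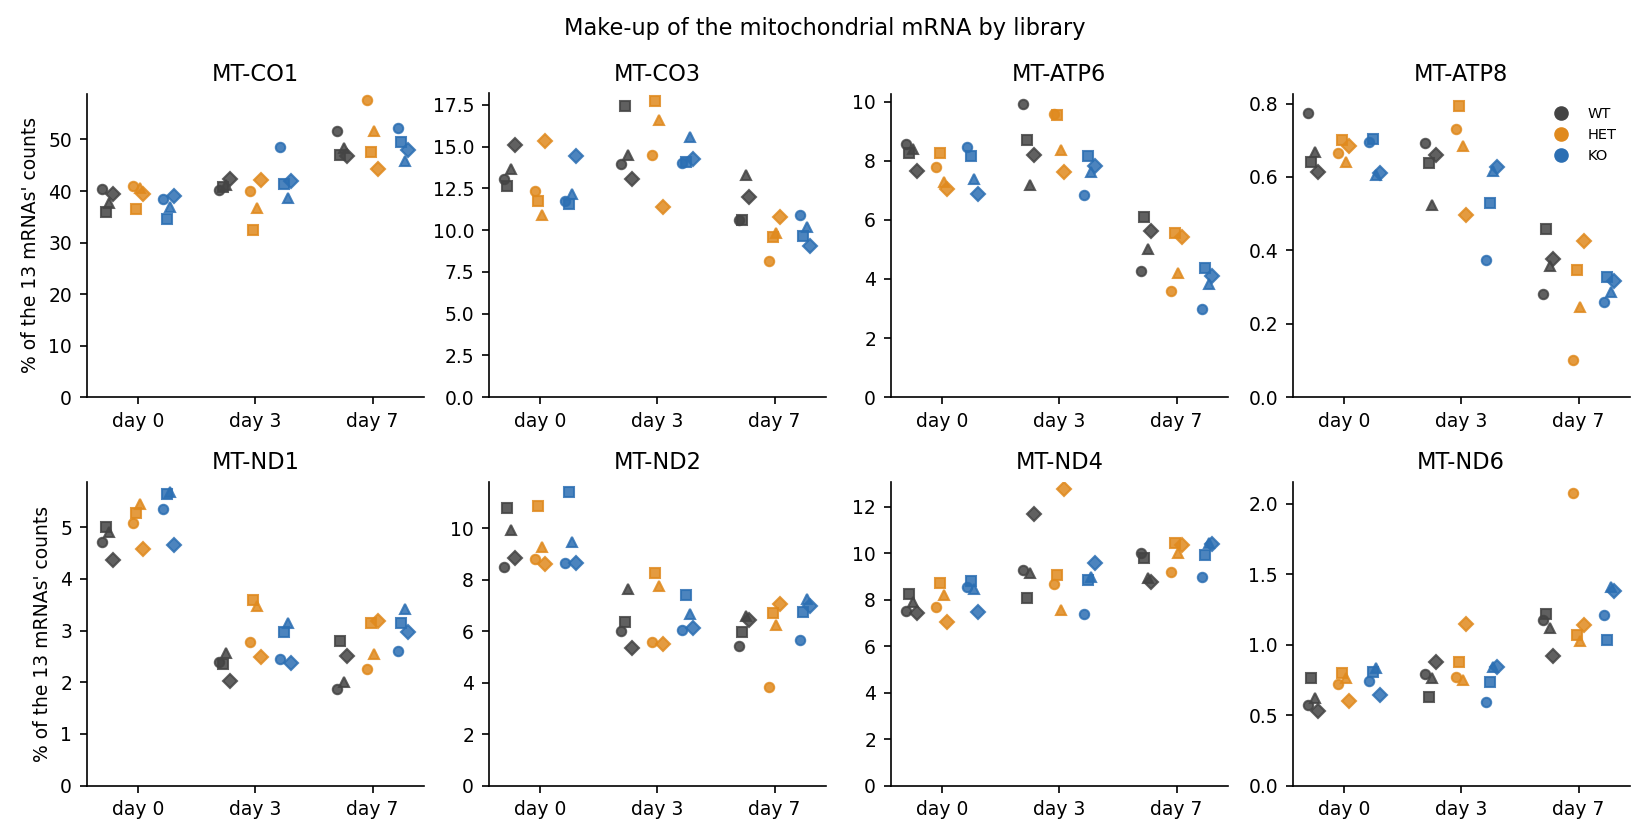
Counts of 8 mitochondrial mRNAs as a percentage of the counts of all 13, in each library, by day and genotype (marker shape: replicate number). MT-ND1 drops between day 0 and day 3 and MT-ATP6 between day 3 and day 7 in all 3 genotypes without overlap; the MT-ND6 point at 2.08% is HET day 7 replicate 1.

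Levels between genes were compared per length. By CPM per kilobase of annotated length in WT at day 0, MT-CO1 was highest at 3356, followed by MT-CO3 at 2314, MT-ATP6 at 1633, MT-ND2 at 1219 and MT-CO2 at 1093. MT-ND6 at 159, MT-ND3 at 97.7 and both rRNAs, at 26.1 and 32.4, were lowest. The deposited TPM placed MT-ATP8 first instead, at 5805 ± 2361 (SD, n = 4), above MT-CO1 at 2893 ± 1089 and MT-ATP6 at 1896 ± 713. Per kilobase MT-ATP8 stood at 446, the ninth of the 15. The MT-ATP8 level relative to its neighbour MT-ATP6 thus turned with the length measure, and neither order is taken as its abundance. MT-CO1 was above MT-CO3 in every WT day 0 library, with TPM of 4405, 2427, 2871 and 1868 beside 3474, 2109, 2539 and 1756. Mean TPM of MT-ND4, MT-ND1 and MT-ND4L differed by less than the SD over libraries, and their order changed between libraries.

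Both rRNAs are structural parts of the mitochondrial ribosome, MT-RNR1 of its small and MT-RNR2 of its large subunit, and are normally the most abundant mitochondrial RNAs. The rRNA depletion kit named in the labels is made to remove them together with cytoplasmic rRNA, so the values are what remained after depletion. MT-RNR1 (ENSG00000211459, chrM:648-1601) had CPM in WT of 48.6, 11.2, 35.8 and 4.09 at day 0, 13.8, 7.77, 4.63 and 5.23 at day 3, and 9.11, 8.83, 36.9 and 3.17 at day 7. In HET it had 14.1, 11.2, 10.1 and 7.06 at day 0, 10.3, 8.1, 41.4 and 43 at day 3, and 3.54, 150, 23.4 and 32 at day 7. In KO it had 208, 19, 10 and 14.5 at day 0, 64.5, 20.7, 29.1 and 10.3 at day 3, and 11.9, 16.5, 40.9 and 13.5 at day 7. Within each day the genotypes overlapped, and single libraries stood far above the rest of their group.

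MT-RNR2 (ENSG00000210082, chrM:1671-3229) was high in the same libraries as MT-RNR1. Its CPM in WT was 105, 21.7, 66.7 and 8.62 at day 0, 32, 22.6, 13.9 and 13.7 at day 3, and 23.5, 21.1, 79.6 and 7.18 at day 7. In HET it was 31.2, 17.5, 23.4 and 11.4 at day 0, 24.8, 25.5, 84.5 and 70.7 at day 3, and 7.37, 283, 55.6 and 57.5 at day 7. In KO it was 377, 36.1, 22.5 and 26.8 at day 0, 119, 37.8, 66.7 and 22 at day 3, and 25.4, 24.3, 93.1 and 27.8 at day 7. Library KO day 0 replicate 1 was the highest for both rRNAs among all 36.

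At day 3 both rRNAs were called higher in libraries labelled KO than in WT, with log2 differences of 1.98 ± 0.62 for MT-RNR1 and 1.57 ± 0.51 for MT-RNR2 (SE; edgeR adjusted p = 0.0359 and 0.0422). The KO and WT libraries overlapped for both. In this comparison 21.6% of all genes were called, 12.6% higher and 8.93% lower, so 2 of 15 members is not above the background. Both calls were lost without any 1 of WT replicates 2, 3 and 4 or KO replicates 1 and 3, and with log2(TPM + 1) in limma. None of the 13 mRNAs was called (edgeR), with log2 differences from -0.38 to 0.18.

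**Figure D4:**
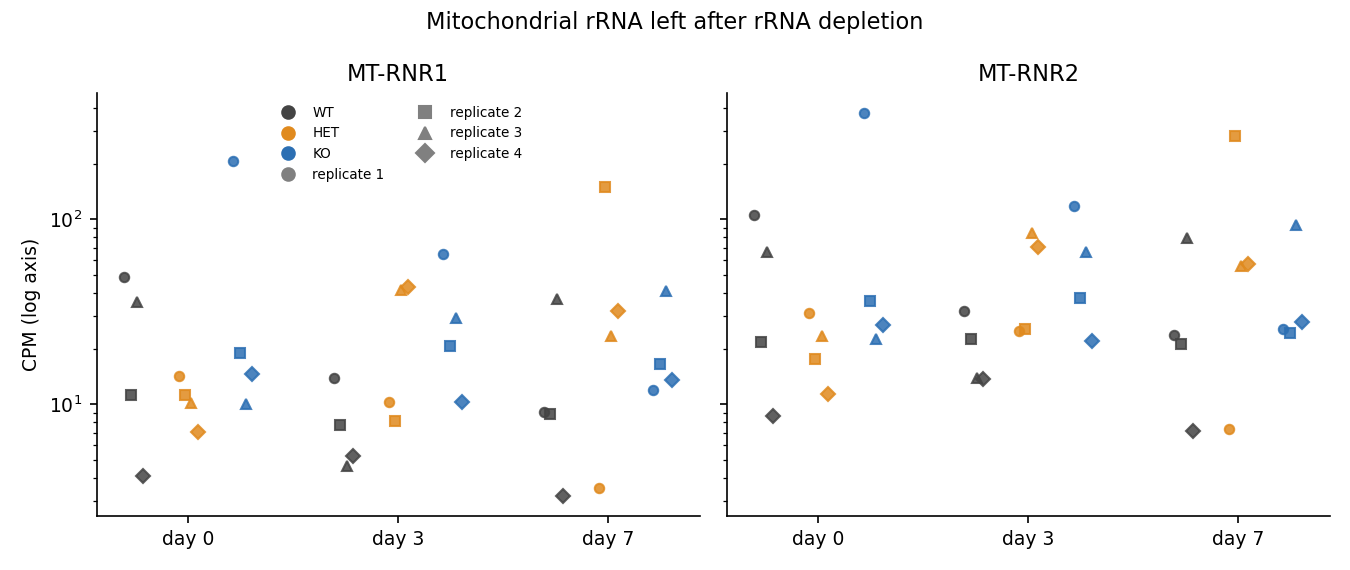
CPM of MT-RNR1 and MT-RNR2 in each library on a log axis, by day and genotype (marker shape: replicate number). Both panels show the same libraries at the top, with KO day 0 replicate 1 at 208 and 377 CPM and HET day 7 replicate 2 at 150 and 283 CPM.

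The remaining genotype comparisons gave no member a call in edgeR. At day 3, all 13 mRNAs had positive log2 differences between HET and WT, from 0.38 to 0.93 with a median of 0.62. Of the 15 members, 9 had an unadjusted edgeR p under 0.05, as did 14.1% of all genes tested. Members cut from a shared precursor are not independent, so counts of members here and in the other comparisons do not stand for separate differences. The lowest edgeR adjusted p was 0.0947, for MT-ND1 at 0.93 ± 0.27, whose CPM was 310, 475, 344 and 222 in HET. All 4 exceeded the WT range of 141 to 194. In that comparison edgeR called 3.28% of all genes, 708 in number. DESeq2 called MT-ND1 and MT-RNR1, among 1321 genes called in all. With the replicate number as a block, 1 member, MT-ND1, was called, among 1895 genes in all.

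Between KO and HET at day 3 all 13 mRNAs had negative log2 differences, from -1.02 to -0.44 with a median of -0.70. Of the 15 members, which are not independent, 11 had an unadjusted edgeR p under 0.05, as did 18.1% of all genes tested. None of the members passed adjustment (lowest edgeR adjusted p = 0.0941), with 4.35% of all genes called. DESeq2 called 2 lower, MT-ATP6 and MT-ND4L, among 1853 genes called in all, beside 937 in edgeR. Without KO replicate 3 edgeR called 5 members lower. This comparison shares its HET libraries with the one above. MT-ND4L, a small complex I subunit, was the 1 member whose KO and HET libraries did not overlap, at -1.02 ± 0.34 (log2, SE). This too is a description without the share over all genes.

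CPM values of the day 3 libraries for the other members named in full were as follows. MT-CO1 had 4458, 4283, 3636 and 3767 in HET and 2779, 2223, 3755 and 2885 in KO. MT-CYB had 578, 689, 543 and 262 in HET and 225, 229, 429 and 244 in KO. In both, KO replicate 3 was the highest KO library. MT-ATP8 had 81.6, 105, 67.9 and 44.2 in HET and 21.4, 28.4, 59.9 and 43.1 in KO. MT-ND6 had 85.7, 116, 74.5 and 102 in HET and 34, 39.6, 81.7 and 58.1 in KO. MT-ND2 had 622, 1092, 769 and 492 in HET and 346, 398, 647 and 421 in KO. MT-ND1 in KO had 141, 159, 305 and 164. Of these mRNAs, MT-CO1, MT-ND6 and MT-ND1 had HET libraries wholly above WT. Of all 15 members tested, 6 had no overlap between HET and WT at day 3. Both counts are descriptions, since the share of all genes without overlap is not given.

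At day 0 no member was called in KO against WT, HET against WT or KO against HET (edgeR), with 2.08%, 1.63% and 0.856% of all genes called. Unadjusted edgeR p was under 0.05 for 1, 0 and 3 of 15 members, beside 12.4%, 11.6% and 5.75% of all genes tested. DESeq2 called 0 members in each. The 13 mRNAs had median log2 differences of 0.26, 0.14 and 0.06. With the replicate number as a block, 1 member, MT-ND3, a small complex I subunit, was called higher in KO than WT, at 0.48 ± 0.15 (log2, SE) without the block. Over all genes 960 were called with the block and 425 without it.
MT-CO1 CPM at day 0 was 7031, 4528, 8180 and 3681 in HET and 8509, 4444, 5251 and 3631 in KO. MT-CYB was 793, 509, 912 and 418 in HET and 1049, 598, 731 and 442 in KO. MT-ND6 was 124, 99.3, 154 and 56.3 in HET and 164, 104, 119 and 59.9 in KO. Replicate 4 was again the lowest of each group for all 3. MT-ATP8 was 114, 87.1, 129 and 64 in HET and 154, 90.7, 86.3 and 56.8 in KO. MT-ND1 was 874, 655, 1095 and 428 in HET and 1183, 727, 809 and 433 in KO, and MT-ND2 was 1510, 1349, 1862 and 803 in HET and 1912, 1470, 1345 and 803 in KO. All of these ranges overlapped those of WT.

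At day 7 no member was called in KO against WT, HET against WT or KO against HET (edgeR), while 32.6%, 14.4% and 1.4% of all genes were called. None of the 15 members had an unadjusted edgeR p under 0.05 in any of the 3, where 43.6%, 29.6% and 13.9% of all genes tested did. DESeq2 called 0 members in each. The median log2 differences of the 13 mRNAs were 0.22, 0.16 and 0.04. Over the same groups the neuron markers differed widely, with 8 of 12 called higher in KO than in WT and 7 of 12 in HET.
MT-CO1 CPM at day 7 was 1356, 7575, 5593 and 5734 in HET and 3106, 6654, 5204 and 4249 in KO. MT-CYB was 60.8, 600, 371 and 471 in HET and 202, 540, 481 and 298 in KO. MT-ATP8 was 2.4, 55.2, 26.7 and 55.4 in HET and 15.4, 44.2, 32.6 and 28.1 in KO. Replicate 1 was the lowest of its group in HET and KO for these 3. MT-ND6 was 48.9, 170, 111 and 148 in HET and 71.8, 139, 160 and 122 in KO. MT-ND1 was 53.1, 499, 275 and 414 in HET and 155, 423, 389 and 264 in KO, and MT-ND2 was 89.8, 1065, 677 and 915 in HET and 336, 906, 824 and 621 in KO. The spread of the 4 HET libraries limits what these comparisons could detect.

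Whether the time course itself differed by genotype was tested with interaction terms over all 36 libraries. No member was called (edgeR) for KO against WT in the change from day 0 to 3 or from 3 to 7, or for HET against WT in the same steps. The share of all genes called was 8.55%, 18.5%, 0.271% and 4.74%. Unadjusted edgeR p was under 0.05 for 0, 0, 2 and 0 of 15 members, beside 22.7%, 30.1%, 7.35% and 16.6% of all genes tested. DESeq2 called 0 members in each. The median log2 interactions of the 13 mRNAs were -0.28, 0.25, 0.55 and -0.51. Fewer mitochondrial RNAs per cell and fewer cells that hold many cannot be told apart in bulk RNA.

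The nuclear-encoded partners of the mitochondrial mRNAs were described for WT. From day 0 to day 3, nuclear subunits of complex I rose for 20 of 37 tested and fell for none (edgeR), with a median log2 difference of 0.47 beside 0.07 for all genes, of which 31.2% rose and 28.7% fell. For complex III 8 of 9 rose (median 0.70), for complex IV 12 of 12 rose (median 1.04), and for the ATP synthase 15 of 17 rose and 1 fell (median 0.59). For complex II, which has no mitochondrially encoded subunit, 1 of 4 rose. NDUFA13 of complex I rose by 1.64 ± 0.21, COX7A2 of complex IV by 1.90 ± 0.24 and UQCRB of complex III by 1.3 ± 0.22 (log2, SE), while ATP5MC1 of the ATP synthase fell by 0.85. The 13 mitochondrial mRNAs, encoding the cores of the same complexes, had a median of -0.72. The direction of the nuclear lists depends on the scale. With log2(TPM + 1) in limma, where the median of all genes was -0.38, the medians were -0.50, -0.29, -0.01 and -0.41 for complexes I, III, IV and the ATP synthase, and -1.71 for the mitochondrial mRNAs. On either scale the mitochondrial median was below each nuclear one.

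From day 3 to day 7 in WT the nuclear subunits were lower more often than higher, where 23.3% of all genes tested rose and 22.9% fell. For complex I 0 rose and 16 of 37 fell (median -0.35, edgeR), for complex III 0 rose and 5 of 9 fell, for complex IV 1 rose and 3 of 12 fell, and for the ATP synthase 0 rose and 8 of 17 fell. The complex IV count is near the share over all genes. NDUFB2 of complex I fell by 1.77 ± 0.24 and UQCRFS1 of complex III by 0.74 ± 0.11 (log2, SE). The mitochondrial mRNAs had 3 rises and no fall in the same fit. Those rises, 23.1% of the list, are near the share over all genes.

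**Figure D5:**
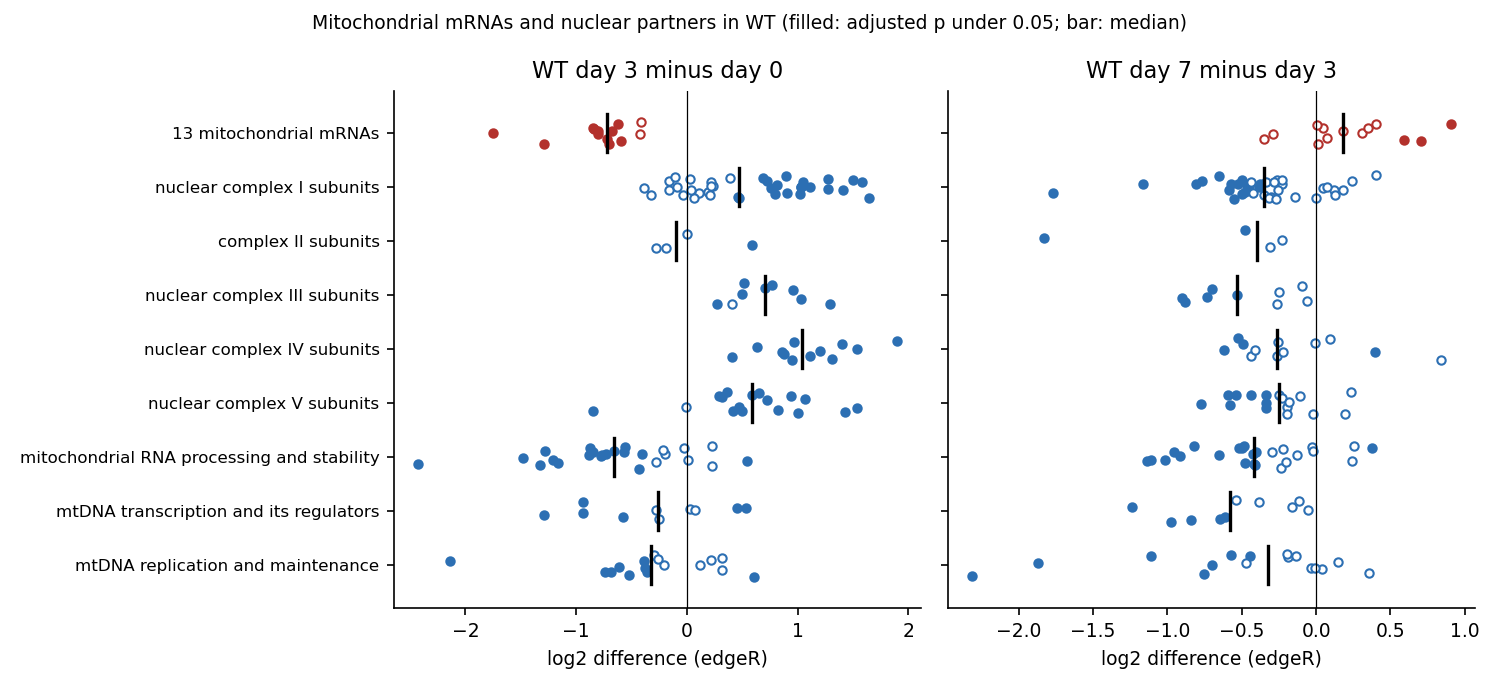
Log2 difference (edgeR) of each tested gene in the 13 mitochondrial mRNAs (red) and in 8 nuclear-encoded lists (blue), in WT from day 0 to 3 (left) and day 3 to 7 (right); filled points passed an adjusted p of 0.05 and black bars are medians. On the left the mitochondrial median is -0.72 and that of nuclear complex IV subunits 1.04.

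Genes that transcribe, copy and process mitochondrial RNA were followed in WT as well, over a step in which 31.2% of all genes rose and 28.7% fell. Of 25 genes of mitochondrial RNA processing and stability, 1 rose and 17 fell from day 0 to day 3 (edgeR; median -0.66). They included the pseudouridine synthase PUS1, which fell by 2.43 ± 0.18, and ELAC2, which cuts tRNA 3′ ends, by 1.2 ± 0.11 (log2, SE). Of 10 genes of mitochondrial transcription and its regulators, 2 rose and 4 fell, which like the counts of calls for replication, translation and biogenesis below is not read as a result about the list. TFAM, which packages mitochondrial DNA and activates its transcription, fell from 166 ± 16 to 63.1 ± 14.6 CPM (SD, n = 4). Of 16 genes of DNA replication and maintenance, 1 rose and 8 fell, TWNK, the replicative helicase, by 2.14 ± 0.13. Of 13 translation factors 3 rose and 6 fell, and of 9 regulators of biogenesis 0 rose and 4 fell, PPRC1 among them by 2.61 ± 0.13. By day 7 TFAM stood at 32.6 ± 3.2 CPM.

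In libraries labelled KO against WT at day 3, 12.6% of all genes were called higher and 8.93% lower, and the nuclear lists are read against that. For complex I 4 of 37 subunits fell, a share near the background, NDUFS3 and NDUFB2 among them by 0.83 and 1.00 on the log2 scale, and none of the 9, 12 and 17 tested subunits of complexes III, IV and the ATP synthase were called (edgeR). The median log2 differences were -0.41, -0.49, -0.44 and -0.43 for complexes I, III, IV and the ATP synthase, beside -0.05 for all genes. These medians are a description without a test. In complex II 1 of 4 fell, SDHD. Of the regulator lists, 3 of 16 genes of DNA replication and maintenance fell (MGME1, DNA2 and TOP3A), as did 1 of 10 of transcription (MTERF2), 1 of 13 translation factors (MTFMT) and 1 of 9 regulators of biogenesis (GABPB1), while 2 of 25 genes of RNA processing (PDE12 and FASTKD5) and 1 of the 9 regulators of biogenesis rose. PPARGC1A, which encodes the biogenesis coactivator PGC-1alpha, rose from 1.69 to 8.49 CPM, and PDE12, which removes poly(A) tails from mitochondrial mRNA, from 15.1 to 39.5 CPM. Both rises passed (edgeR adjusted p = 0.00024 and 0.000302). In HET against WT at day 3 no gene of the 10 lists of nuclear partners was called (edgeR).

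Nuclear copies of mitochondrial genes were counted alongside them. MTATP6P1 received 135148 counts over the 36 libraries, 13.3% of those of MT-ATP6, with a range of 6.13% to 15.2% between libraries. For MT-CO1, MT-CO2, MT-CO3, MT-ND2 and MT-ND4, the pseudogenes MTCO1P12, MTCO2P12, MTCO3P12, MTND2P28 and MTND4P12 received 0.216% to 0.687% of the member's counts, at identities from 95.72% to 98.70%. Copies of like identity thus differed in the share they received. How reads were divided between MT-ATP6 and MTATP6P1 was not tested, and the MT-ATP6 values are uncertain by the counts listed under the copy. Adding all such copies to the 13 mRNAs left each of the 11 share comparisons on the same side of its threshold.

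Of 12367 genes outside the mitochondrial genome with a mean CPM of at least 5, those whose log2 CPM followed the mitochondrial mRNA most closely over the 36 libraries were mainly these copies. MTND2P28 had a Pearson r of 0.917, MTATP6P1 0.894, MTND4P12 0.853 and MTCO1P12 0.801. The other of the leading 5 was BABAM2, a component of BRCA1-associated deubiquitinase complexes, at 0.809. These correlations are descriptions over libraries that share days and genotypes. The 4 copies named are 95.72% to 98.70% identical to members, and whether their counts are reads of the members was not tested. Their correlations are therefore not read as expression of the copies. Along the genome, the 12 mRNAs read from the same strand as MT-CO1 showed a Pearson r of 0.601 and a Spearman rho of 0.315 between their start and their log2 difference from day 0 to day 3 in WT. That relation is across genes, which are not independent, and MT-ND1 and MT-ND2 lie at its low end. Of the 15 comparisons described in this way, it had the largest Pearson r in size. From day 3 to day 7 in WT, r was -0.103 and rho -0.007. The largest rho in size was -0.699, for KO against WT in the change from day 0 to 3.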

How the data were processed

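Total RNA was rRNA-depleted and read as 151 bp pairs. Per the submitters' processing notes, the authors used cutadapt 4.8, STAR 2.7.8a, RSEM 1.3.3, FastQC 0.11.8 and MultiQC 1.20 with GRCh38; the use of strand and the annotation were not given in the sources used here. The authors deposited expected counts, TPM and FPKM per gene; FPKM was not used, and 4 reporter rows were left out. Expected counts were rounded to whole numbers. All genes were fitted with edgeR 4.0.16 (R 4.3.3; TMM, filterByExpr, quasi-likelihood, Benjamini-Hochberg, 0.05): genotypes on a day's 12 libraries, time on the 12 WT libraries, interactions on all 36. Shares were compared by exact two-sided permutation over 70 splits of 4 against 4. Alternatives used DESeq2 1.42.0, limma 3.58.1 on log2(TPM + 1) or log2(TPM + 0.1), other scalings, no filter, the replicate number as a block and each library left out. p-values measure the spread between replicates, whose independence beyond the word biological the labels do not describe.

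Members and lists were chosen with earlier results of these data known. The 37 members are given by range and counts. The 6 members MT-RNR1, MT-RNR2, MT-ND6, MT-CO1, MT-CYB and MT-ATP8 are given in every library, as are the 2 called members with the largest change per comparison at a mean CPM of at least 5 without overlap. Up to 2 genes per list with the smallest adjusted p, RAI1, and the 5 genes most like the mitochondrial mRNA are also named. Replicate numbers were checked for pairing by correlating deviations from group means across genes. All 4 correlations passed 0.1 in 3 comparisons: 0.287 to 0.692 between KO and WT on day 0, 0.121 to 0.594 between them on day 3, and 0.166 to 0.796 between HET and WT on day 3. What the numbers share is not described in the labels. The scripts were tested on simulated counts.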

Additional observations from a re-analysis of the deposited data

Results flagged for a closer look

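Among 99 groups of 4 values tested for a library far from the other 3, 9 were flagged, where chance gives about 1 in 20 (4.95). Of the 9, 6 concern rRNA. The flags are not independent, because the rRNA share is the sum of MT-RNR1 and MT-RNR2. Some libraries were thus flagged more than once, and the count of flags is not read as an excess over chance. KO day 0 replicate 1 held 0.0585% of its counts on the 2 mitochondrial rRNAs against 0.00325% to 0.00551% in the other 3, with 208 CPM for MT-RNR1 against 10 to 19 and 377 CPM for MT-RNR2 against 22.5 to 36.1. KO day 7 replicate 3 held 0.0134% against 0.00374% to 0.00413%, with 40.9 CPM for MT-RNR1 and 93.1 CPM for MT-RNR2. In KO day 3 replicate 3, MT-CYB stood at 429 CPM against 225 to 244 in the other 3, and MT-ND1 at 305 CPM against 141 to 164. In HET day 7 replicate 1, MT-ND6 was 2.08% of mitochondrial mRNA counts against 1.03% to 1.14% in the other 3.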

How the results depend on the processing

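The 11 lower calls in WT from day 0 to day 3 kept their direction under every scaling and model tried except MT-ATP6, which turned to 0.04 (log2) with the small structural RNA covariate, where 2 calls remained. Leaving out 1 library gave 4 to 13 calls there. In WT from day 3 to day 7, 1 member was called with library size alone and 0 with log2(TPM + 1) or log2(TPM + 0.1), and leaving out 1 library gave 1 to 3. For KO against WT at day 3, log2(TPM + 1) gave 0 calls, log2(TPM + 0.1) 1 and the covariate 0, and leaving out 1 library gave 0 to 2. For HET against WT at day 3 DESeq2 gave 2 calls and leaving out 1 library 0 to 1, and for KO against HET at day 3 DESeq2 gave 2, the covariate 2 and leaving out 1 library 0 to 5. For KO against WT at day 0 leaving out 1 library gave 0 to 1. With the replicate number as a block, 1 member was called for KO against WT at day 0 and 1 for HET against WT at day 3. For KO against HET at day 3 the block gave 5, where 2739 of all genes were called, beside 937 without it. The pairing correlations there ran from -0.099 to 0.699, not all over 0.1, so whether the numbers pair these samples is not settled. No other count moved by more than 1.5 times. The mitochondrial share of HET minus WT at day 3 was 0.522 percentage points on TPM, with an exact p of 0.143 in place of 0.0286 (neither adjusted; 0.157 after adjustment on counts). Leaving out 1 library gave 0.242 to 0.386 percentage points there, -0.158 to -0.0131 for KO minus WT and -0.481 to -0.307 for KO minus HET at day 3, -0.709 to -0.442 for WT day 3 minus day 0, and 0.297 to 0.407 for the MT-ND6 proportion of WT day 7 minus day 3. With 3 libraries left in a group the exact test cannot go below 0.0571, so these ranges show size only. The cause of each change was not tested. Without counts on the tRNAs, and with rRNA depleted, only the 13 mRNAs were measured at depth.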
